A study of Mus musculus with 10 samples.

Results

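The 33 genes described here encode the parts of the tight junction and the factors that epithelial cells use to build and keep it. They were picked by symbol for their known roles, with earlier results of these data known. All 33 were found among the 18193 genes that the arrays measured. Each gene was read from 1 probe set, a group of short probes against its transcript, namely the one with the highest mean over the 10 arrays. The genes were 7 claudins, 5 other junction membrane proteins, 3 plaque proteins, Epcam, 4 polarity and sorting genes, 4 membrane proteases or inhibitors, 7 transcription factors and 2 splicing factors.

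Messenger RNA levels were measured on Affymetrix mouse arrays in total RNA from secondary embryonic fibroblasts of a 129/SvJ x C57/B6 hybrid strain, 2 arrays for each of 5 groups. Cells of all groups carried transgenes of Pou5f1, Sox2, Klf4 and Myc, the factors used for reprogramming, under a promoter that doxycycline switches on. The control cells were not induced and were held in 0.5% serum for 96 h. The 4 cohorts received doxycycline, labelled as 2 ug/ul, in 15% serum for 96 h and had divided on average 0, 1, 2, or 3 or more times. A cohort and the control therefore differed in doxycycline, in serum and in divisions at once. The 4 cohorts share transgenes, doxycycline and serum. The arrays were registered as 2 sets, the earlier with the 4 arrays of the control and of 3 or more divisions, the later with the 6 arrays of 0, 1 and 2 divisions, so divisions and set cannot be told apart where a comparison spans both. The labels used here do not say how the cohorts were separated.

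Tight junctions seal the space between neighbouring epithelial cells. Claudins form the paracellular barrier, occludin and the tricellulin family join them in the membrane, and ZO proteins and cingulin tie the strands to actin. Fibroblasts do not build such junctions, and a move from a mesenchymal to an epithelial state is a known early step of fibroblast reprogramming. In epithelia the grainyhead-like, Ovol and Ets-family factors sustain these genes, while zinc-finger factors of the Snail and Zeb families repress many of them through a DNA word called an E-box. The design allows the question of which of these genes had moved, and in which cohort.

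Promoter windows from RefSeq (GRCm38.p6), 250 bases before to 50 after the annotated start, were available for 24 of the 33 genes, among them 4 of the 5 genes that rose, and Epcam, the best known epithelial surface marker of the list. These 5 windows are shown because they set called genes beside an uncalled one, with and without the E-box word. Capitals mark that word, CACCTG or, where it lies on the other strand, CAGGTG.
Grhl3, chr4:135573583-135573882, minus strand: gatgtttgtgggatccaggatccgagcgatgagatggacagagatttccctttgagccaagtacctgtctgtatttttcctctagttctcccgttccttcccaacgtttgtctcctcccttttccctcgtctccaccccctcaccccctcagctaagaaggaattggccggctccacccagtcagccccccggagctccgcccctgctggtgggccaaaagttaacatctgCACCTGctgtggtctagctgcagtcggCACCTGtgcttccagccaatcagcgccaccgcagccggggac
Grhl1, chr12:24572037-24572336, plus strand: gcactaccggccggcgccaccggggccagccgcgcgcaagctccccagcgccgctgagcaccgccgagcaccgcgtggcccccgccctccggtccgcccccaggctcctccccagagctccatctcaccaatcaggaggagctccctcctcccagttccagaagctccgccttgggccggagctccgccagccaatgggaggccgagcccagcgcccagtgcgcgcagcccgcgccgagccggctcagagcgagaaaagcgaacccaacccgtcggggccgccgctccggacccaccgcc
Cldn3, chr5:134985964-134986263, plus strand: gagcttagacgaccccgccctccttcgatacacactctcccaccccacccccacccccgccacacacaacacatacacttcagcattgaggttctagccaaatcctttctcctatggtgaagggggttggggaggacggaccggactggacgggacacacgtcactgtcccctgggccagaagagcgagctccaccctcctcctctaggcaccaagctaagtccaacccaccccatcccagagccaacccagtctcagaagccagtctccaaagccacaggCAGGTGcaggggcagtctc
Crb3, chr17:57061951-57062250, plus strand: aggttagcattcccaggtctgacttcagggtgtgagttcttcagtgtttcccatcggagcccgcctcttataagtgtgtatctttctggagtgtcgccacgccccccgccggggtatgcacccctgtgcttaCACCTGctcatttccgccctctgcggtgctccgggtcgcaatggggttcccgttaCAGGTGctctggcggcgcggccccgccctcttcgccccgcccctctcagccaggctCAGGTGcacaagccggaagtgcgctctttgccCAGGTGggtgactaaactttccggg
Epcam, chr17:87635729-87636028, plus strand: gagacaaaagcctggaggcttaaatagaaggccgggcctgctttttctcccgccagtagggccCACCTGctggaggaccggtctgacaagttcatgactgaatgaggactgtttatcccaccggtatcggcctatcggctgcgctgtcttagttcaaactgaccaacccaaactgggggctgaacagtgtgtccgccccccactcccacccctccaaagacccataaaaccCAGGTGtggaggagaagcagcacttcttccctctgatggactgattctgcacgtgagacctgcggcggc

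Grhl3 held the word at 19 bases before and 8 bases after its start, Cldn3 at 31 bases after it, and Grhl1 did not hold it in this window. Crb3 held it 4 times, from 118 bases before to 25 after the start, and Epcam held it at 187 and at 19 bases before the start. Where a gene had several windows, only the first listed was searched, for members and for all protein-coding genes alike. Grhl1 and Crb3 were among the genes with several. Among all members with a window, 16 of 24 (66.7%) held the word, against 3372 of 17492 (19.3%) windows of protein-coding genes. The same letters in another order, CCACTG on either strand, were found in 3 of 24 members (12.5%) and in 19.9% of all windows. The word AACNGGTT (AACCNGTT on the other strand), read by grainyhead-like factors, was found in 2 of 24 members (8.33%), Cgn and Rab25, and in 1.94% of all windows. Matches describe these letters only, and none was measured as a bound site.

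Of the 33 genes, 5 rose in the cohort of 3 or more divisions against the control and 0 fell. These were the transcription factors Grhl3 and Grhl1, the membrane protease St14, the claudin Cldn3 and the polarity gene Crb3. The call was a Benjamini-Hochberg adjusted p under 0.05 over all 18193 genes in a limma fit, two-sided. The 5 called genes are 15.2% of the list, while in the same comparison 27.6% of all genes were called, 15.9% of them higher and 11.7% lower. The median log2 difference was 0.14 over the members and 0.02 over all genes, and 25 of the 33 lay above 0. The arrays of the 2 groups did not overlap for 14 members that were higher and 5 that were lower, against 34.6% and 28.6% of all genes. The list thus had about the share of rises seen across the array, with 0 falls. Both groups belong to the earlier set of arrays. The fit takes its spread from all 5 groups, so the 6 arrays of the later set count too. Fitted to the 4 arrays compared alone, 4 members were called, where 4066 of all genes were, and Crb3 was not (limma adjusted p = 0.095). The titles call the 4 arrays compared biological replicates, and those of the 6 later arrays give a replicate number only. None states separate cultures, so the p-values measure a spread between samples that may be technical in part.

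**Figure D1:**
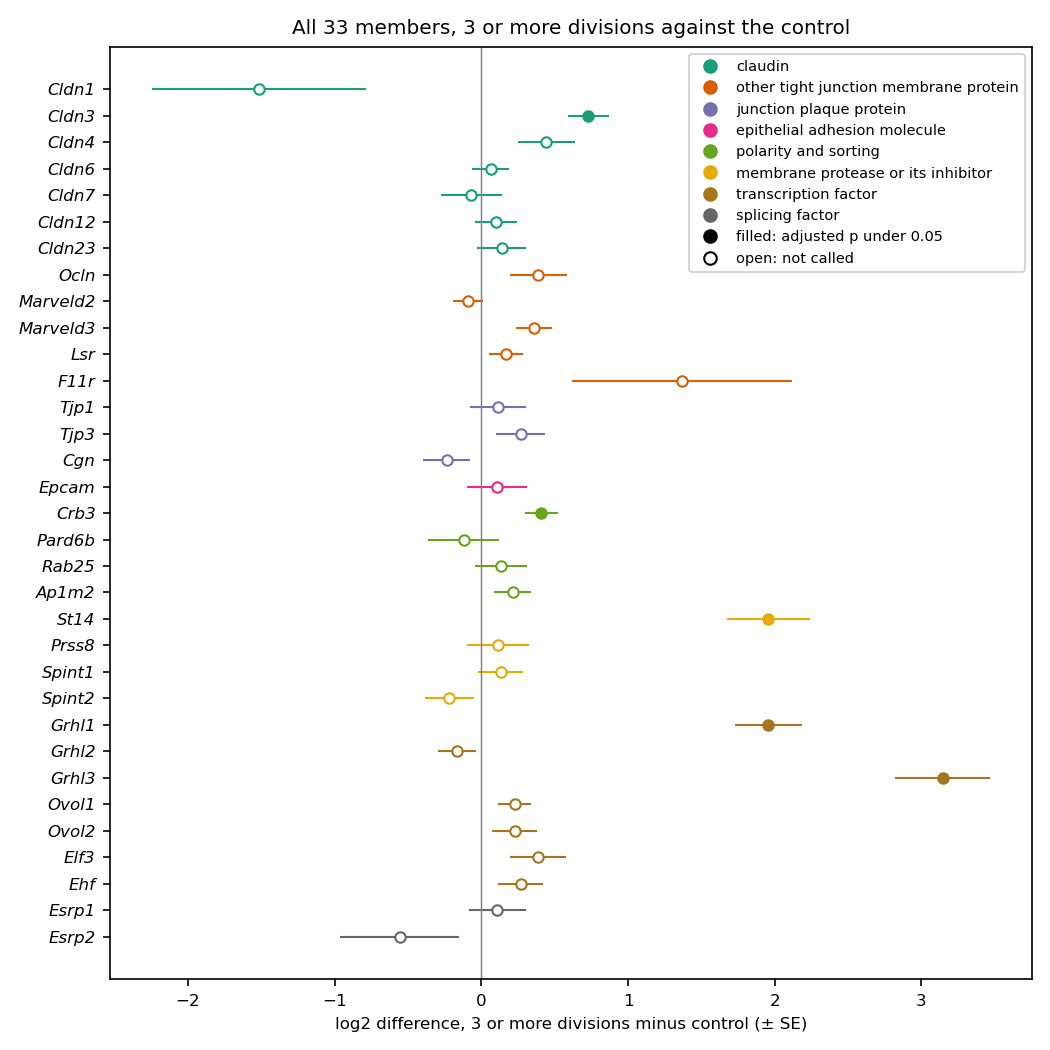
Log2 difference of each of the 33 genes between 3 or more divisions and the control (points) with its SE (bars), coloured by role; filled points were called. The 5 filled points lie between 0.41 and 3.14, and most of the open points lie near 0.

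Of the 3 grainyhead-like factors, Grhl3 and Grhl1 rose, and Grhl3 had the largest difference of the list. Grhl3, a factor of skin barrier formation and wound closure, read 3.85 and 4.05 on the log2 intensity scale in the control and 7.30 and 6.88 after 3 or more divisions. In between, its arrays read 4.17 and 4.38 after 0 divisions, 4.48 and 4.68 after 1, and 5.69 and 4.59 after 2. Both arrays of 3 or more divisions stood above all others, and the arrays after 2 divisions lay far apart. The difference from the control was 3.14 ± 0.32 (SE, n = 2 arrays a group), or 8.84-fold, with a limma adjusted p of 0.000534. The control arrays were dim, and the size of the change rests on them: with intensities below 32 set to 32, the difference was 2.09 for Grhl3, 1.03 for Grhl1 and 1.30 for St14, all 3 still called.

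Grhl1, a factor of the epidermis that regulates desmosomal cadherins, followed with 4.32 and 3.83 in the control and 5.84 and 6.22 after 3 or more divisions. It read 4.25 and 4.39 after 0 divisions, 4.44 and 4.62 after 1, and 4.95 and 4.46 after 2. The arrays of the last cohort again lay above the other 8 without overlap. The difference from the control was 1.96 ± 0.23 (SE, n = 2), or 3.88-fold, with a limma adjusted p of 0.000826. Grhl2, the family member best known for holding epithelial identity, did not pass the test: it read 5.0 and 5.23 in the control and 4.98 and 4.92 after 3 or more divisions (limma adjusted p = 0.408). Its 3 other probe sets differed by 0.21, 0.32 and -0.10, none of them called.

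The other 4 transcription factors did not pass the test. Ovol1 and Ovol2, zinc-finger factors that oppose the mesenchymal state, differed from the control by 0.23 each, with limma adjusted p of 0.178 and 0.335. Elf3 and Ehf, Ets-family factors of epithelia, differed by 0.39 and 0.27, with limma adjusted p of 0.187 and 0.246. All 4 means lay above the control, and the 95% interval of each stayed within 2-fold.

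St14 encodes matriptase, a membrane-bound serine protease of epithelia. It read 4.47 and 4.21 in the control, 4.45 and 4.25 after 0 divisions, and 4.25 and 5.12 after 1. It reached 5.24 and 5.52 after 2 divisions and 6.09 and 6.51 after 3 or more. The last 2 cohorts each lay above the control without overlap. The difference between 3 or more divisions and the control was 1.96 ± 0.28 (SE, n = 2), or 3.88-fold, with a limma adjusted p of 0.00192.

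The partners of matriptase did not pass. Prss8 encodes prostasin, a protease that acts with matriptase, and differed by 0.12 (limma adjusted p = 0.753). Spint1 and Spint2 encode inhibitors of matriptase and differed by 0.13 and -0.22, with limma adjusted p of 0.594 and 0.398. Spint2 read between 7.17 and 7.98 over the 10 arrays. The protease was thus the called member of its group of 4.

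**Figure D2:**
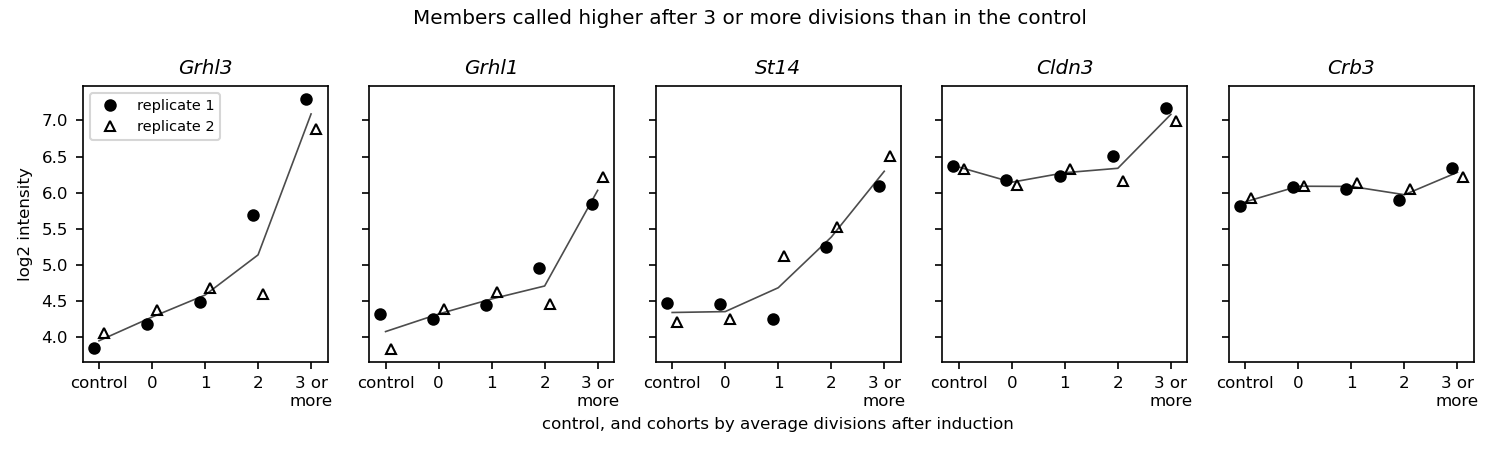
Log2 intensity on each array (filled, replicate 1; open, replicate 2) and the group mean (line) for the 5 genes that rose, over the control and the cohorts of 0, 1, 2 and 3 or more divisions. All 5 genes are highest on both arrays of the last cohort, and both St14 arrays after 2 divisions (5.24 and 5.52) already lie above the control.

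Cldn3 was the called claudin of 7. It forms a sealing strand in simple epithelia. It read 6.38 and 6.33 in the control, 6.18 and 6.11 after 0 divisions, 6.23 and 6.32 after 1, 6.51 and 6.17 after 2, and 7.17 and 7.0 after 3 or more. The first 4 groups overlapped or lay close together, and the last lay above all of them. The difference from the control was 0.73 ± 0.14 (SE, n = 2), or 1.66-fold, with a limma adjusted p of 0.00602. Of its 3 other probe sets, 2 gave larger differences, 1.09 and 1.38, and the dimmest gave 0.40 (limma adjusted p = 0.159 over all probe sets).

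Cldn1, the claudin of the epidermal barrier, had the widest gap between 2 control arrays of the list. They read 4.80 and 7.49, and the arrays after 3 or more divisions read 4.66 and 4.61. The cohorts of 0, 1 and 2 divisions lay between 5.82 and 6.94. The last cohort was thus the lowest, yet 1 of the control arrays came close to it. The difference from the control was -1.51 ± 0.73 (SE, n = 2), with a limma adjusted p of 0.173 and a 95% interval from -3.20 to 0.18. Without control replicate 1 it was -2.86 with a limma adjusted p of 0.00344, and without control replicate 2 it was -0.17. Its 3 other probe sets differed by 0.32, -0.20 and -0.56, with limma adjusted p from 0.239 to 0.305 over all probe sets, so they did not share a sign.

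Cldn4, a claudin of tight epithelia, read 3.69 and 4.10 in the control and 4.44 and 4.23 after 3 or more divisions, a difference of 0.44 ± 0.19 (SE, n = 2) with a limma adjusted p of 0.136. Cldn6, Cldn7 and Cldn23 differed by 0.06, -0.07 and 0.14, with limma adjusted p of 0.77, 0.855 and 0.61. Cldn12, which stands apart from the classic claudins, read 8.86 to 9.43 over the 10 arrays, and its difference was 0.10 (limma adjusted p = 0.673). Levels of different genes are not compared, since probe sets differ in brightness.

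Of the other 5 junction membrane proteins, 0 were called. F11r, which encodes the adhesion molecule JAM-A, read 6.71 and 8.87 in the control and 9.0 and 9.32 after 3 or more divisions. It read 6.89 and 7.97 after 0 divisions, 6.89 and 8.53 after 1, and 7.90 and 8.05 after 2. Replicate 2 was brighter than replicate 1 in all 5 groups, by 2.16 in the control and 0.32 after 3 or more divisions. Both arrays of the last cohort lay above the other 8.

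The F11r difference was 1.37 ± 0.75 (SE, n = 2) with a limma adjusted p of 0.229. With the replicate number as a block, which takes out what recurs between same-numbered arrays, its limma adjusted p was 0.0368. Without control replicate 2 the difference was 2.44 (limma adjusted p = 0.041), and without control replicate 1 it was 0.29 (limma adjusted p = 0.827). A second, dim probe set of F11r differed by 0.12.

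**Figure D3:**
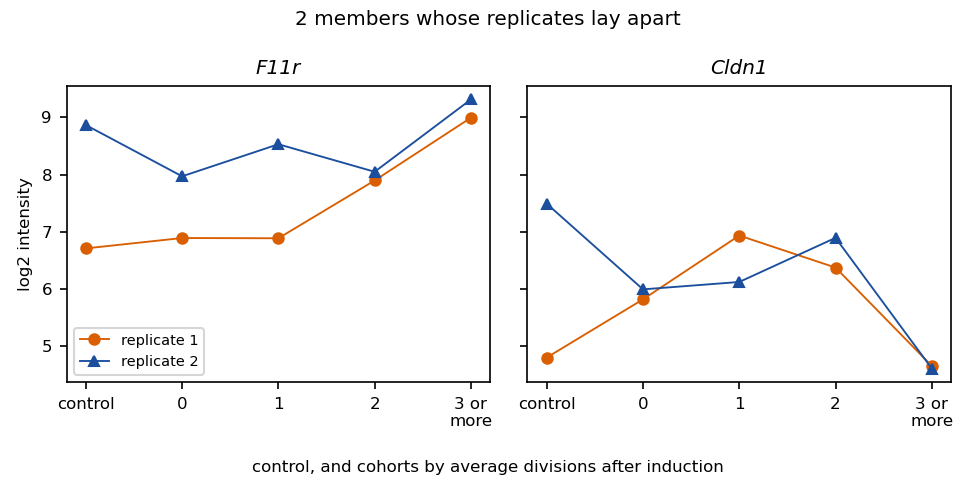
Log2 intensity of Cldn1 and F11r by group, with a line for each replicate number. The control arrays of Cldn1 lie 2.69 apart, and replicate 2 of F11r lies above replicate 1 in all 5 groups.

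Ocln, the gene of occludin, read 3.68 and 3.03 in the control and 3.81 and 3.67 after 3 or more divisions, a difference of 0.39 with a limma adjusted p of 0.19. Without control replicate 1 it was 0.71 (limma adjusted p = 0.0133), without control replicate 2 it was 0.06 (limma adjusted p = 0.809), and with a floor of 16 it was 0. Marveld3, a relative of occludin, read 3.59 and 3.84 and then 4.07 and 4.08. Its difference was 0.36 ± 0.12 (SE, n = 2), with a limma adjusted p of 0.0619. With the replicate block it was 0.0407, so that the block made 7 members called, F11r among them, where it called 37.8% of all genes. Without control replicate 2 the difference was 0.48 (limma adjusted p = 0.0459), and without control replicate 1 it was 0.24 (limma adjusted p = 0.292). Marveld2, which encodes tricellulin at contacts where several cells meet, varied least of the list, by 0.21 over the 10 arrays. Lsr, which recruits tricellulin to those contacts, differed by 0.17 (limma adjusted p = 0.35), and by -0.14 on its other probe set.

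The plaque proteins did not pass either. Tjp1, the gene of ZO-1 that is also made by fibroblasts, read 9.85 to 10.64 over the 10 arrays and differed by 0.11 (limma adjusted p = 0.725). Tjp3, the gene of ZO-3 and mostly epithelial, differed by 0.27 (limma adjusted p = 0.295). Cgn, the gene of cingulin, had a difference of -0.24 (limma adjusted p = 0.336), and of 0.12 on its other probe set.

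Epcam read 6.39 and 6.11 in the control, 6.26 and 5.86 after 0 divisions, 6.53 and 6.21 after 1, 6.37 and 6.30 after 2, and 6.56 and 6.16 after 3 or more. The arrays of the control and of the last cohort overlapped. The difference between 3 or more divisions and the control was 0.11 ± 0.20 (SE, n = 2), with a limma adjusted p of 0.758 and a 95% interval from -0.36 to 0.58. A dimmer probe set of Epcam read 3.36 and 3.55 in the control and 3.70 and 4.40 after 3 or more divisions. That was 0.59 higher in the mean, with a limma adjusted p of 0.102 over all probe sets. The brighter probe set carries the mark for probes that can match other transcripts, and the dimmer one does not. Whether Epcam itself stayed level is therefore not settled by these arrays.

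Crb3, which encodes an apical polarity protein, was the weakest of the 5 calls. It read 5.82 and 5.93 in the control, 6.08 and 6.09 after 0 divisions, 6.05 and 6.13 after 1, 5.89 and 6.05 after 2, and 6.35 and 6.22 after 3 or more. The last cohort lay above all others, and the cohorts of 0 and 1 divisions lay above the control. Those of 0 and 1 were not called against it (limma adjusted p = 0.528 and 0.447) and lie in another registered set. Arrays lay apart in that direction for 3888 and 4001 of all 18193 genes. The difference between 3 or more divisions and the control was 0.41 ± 0.11 (SE, n = 2), or 1.33-fold, with a limma adjusted p of 0.0293.

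Leaving out any of the 4 arrays compared ended the call of Crb3, with limma adjusted p from 0.059 (without control replicate 2) to 0.139 (without control replicate 1, and without replicate 1 of the cohort). Its other 2 probe sets differed by 0.25 and -0.16. Of the remaining polarity and sorting genes, Pard6b, a subunit of the apical Par complex, differed by -0.12 (limma adjusted p = 0.776). Rab25, a GTPase of apical recycling, differed by 0.13 (limma adjusted p = 0.653), and Ap1m2, an epithelial adaptor subunit for basolateral sorting, by 0.21 (limma adjusted p = 0.268).

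The epithelial splicing factors showed how far the choice of probe set mattered. Esrp1 read 3.31 and 3.13 in the control and 3.59 and 3.06 after 3 or more divisions, with overlap. Esrp2 read 6.23 and 5.87 in the control and 5.43 and 5.56 after 3 or more divisions on its brightest probe set, a difference of -0.56 ± 0.40 (SE, n = 2) with a limma adjusted p of 0.369. That probe set is of the type marked as matching several transcripts.

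The second Esrp2 probe set carries no such mark. It read 5.02 and 4.43 in the control, 4.70 and 5.0 after 0 divisions, 4.67 and 4.92 after 1, 5.05 and 5.09 after 2, and 5.82 and 6.59 after 3 or more. Its difference was 1.48 ± 0.28 (SE, n = 2), with a limma adjusted p of 0.00686 over all probe sets. The probe sets of Esrp2 thus differed in sign, and the direction of the gene is not settled by these arrays.

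**Figure D4:**
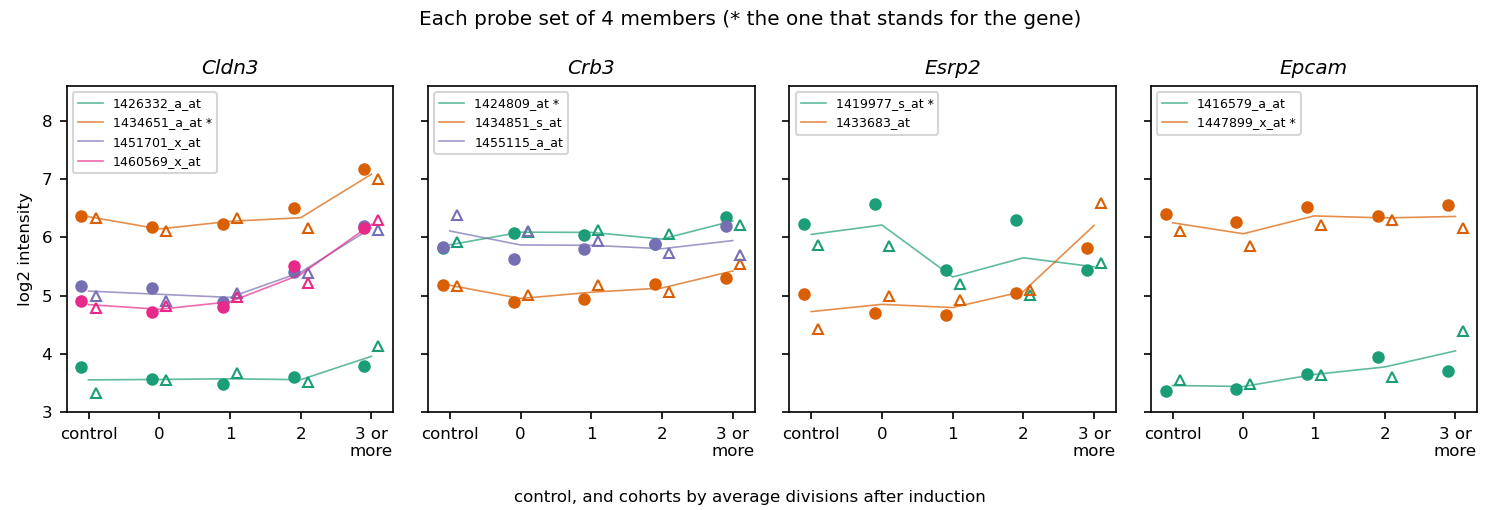
Log2 intensity by array for each probe set of Cldn3, Crb3, Epcam and Esrp2; the probe set with a star stands for the gene. For Cldn3 all 4 are higher after 3 or more divisions than in the control in the mean, and for Esrp2 the starred one is lower (-0.56) and the other higher (1.48).

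Of the 28 members not called, 25 had a 95% interval of the difference within 2-fold in either direction, and Cldn1, F11r and Esrp2 had intervals that reached past it. Most members were dim: 29 of the 33 lay below the median gene mean of 6.5, and Cldn12, F11r, Tjp1 and Spint2 lay above it. Without detection calls a dim member cannot be placed above or below background, and array values this low understate fold changes. All 5 called members were among the 29 dim ones. In bulk RNA, fewer cells with a transcript and less transcript per cell cannot be told apart.

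The earlier cohorts gave no called member. Against the control, 0 of 33 members were called after 0 divisions, after 1 and after 2, where 0.297%, 1.24% and 6.12% of all genes were called. At an unadjusted limma p under 0.05 there were 3, 2 and 6 members, against 11.7%, 14.7% and 21.3% of all genes. In these comparisons the control and the cohort belong to different registered sets of arrays, so set and group cannot be told apart. The median member difference was 0.01, 0.05 and 0.02 in the 3 cohorts, and 0.00, 0.00 and 0.01 over all genes.

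After 2 divisions St14 and Grhl3 had the largest differences from the control, 1.04 ± 0.28 and 1.19 ± 0.32 (SE, n = 2). Their limma adjusted p were 0.0743 and 0.0754, and 0.026 and 0.0321 with the replicate block, so that 2 members were called with the block, where 15.5% of all genes were, against 0 without it. Without replicate 2 of this cohort Grhl3 differed by 1.74 (limma adjusted p = 0.0179), and without replicate 1 by 0.64 (limma adjusted p = 0.248). With a floor of 32, Grhl3 differed by 0.34 and St14 by 0.38. Ocln differed by 0.73 without control replicate 1 (limma adjusted p = 0.0448) and by 0.08 without control replicate 2 (limma adjusted p = 0.834). Grhl1 differed by 0.63 (limma adjusted p = 0.157).

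Within the later set of arrays, 2 divisions could be set against 0 with doxycycline and serum alike. Of the 33 members, 0 passed the limma test, with or without the block, where 0.055% of all genes were called without it and 1.13% with it. At an unadjusted p under 0.05, 4 members passed, against 7.76% of all genes. St14 differed by 1.03 ± 0.28 (SE, n = 2; limma adjusted p = 0.374) and Grhl3 by 0.86 ± 0.32 (SE, n = 2; limma adjusted p = 0.566). The other 2 were Tjp1, 0.45 higher in the mean, and Spint1, 0.42 lower.

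**Figure D5:**
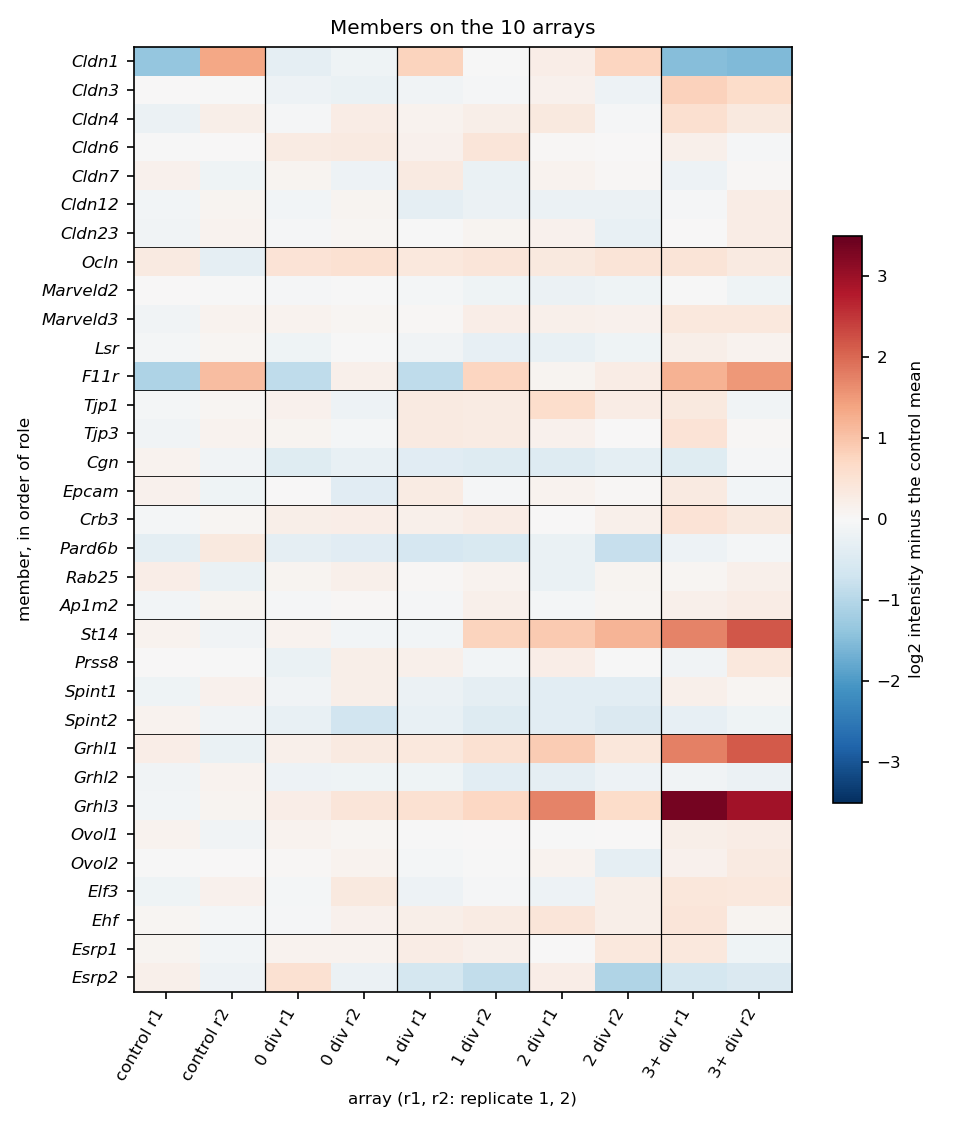
Log2 intensity minus the control mean for each gene (rows, in order of role) on each of the 10 arrays (columns). Grhl3, Grhl1 and St14 stand out on the arrays of 3 or more divisions, while most rows stay near 0; the control arrays of Cldn1 and F11r differ from each other.

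Against the cohort of 0 divisions, the cohort of 3 or more had 4 members called higher and 0 lower, 12.1% of the list, where 13.9% of all genes were called and 8.46% were called higher. These were Grhl3 (2.82), Grhl1 (1.71), St14 (1.94) and Cldn3 (0.94), with limma adjusted p from 0.00327 to 0.00692. Crb3 differed by 0.19 and was not called. Both groups had been induced in 15% serum, but they lie in different registered sets of arrays. F11r differed by 1.72 (limma adjusted p = 0.18, and 0.0203 with the block). Without replicate 2 of 3 or more divisions the limma adjusted p of St14 was 0.0631.

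Against 2 divisions, 3 members were called higher and 0 lower, where 5.97% of all genes were called and 3.46% were called higher. Grhl3 differed by 1.95, Grhl1 by 1.33 and Cldn3 by 0.75, with limma adjusted p from 0.027 to 0.03. St14 differed by 0.91 (limma adjusted p = 0.0988), and Spint1 by 0.51 (limma adjusted p = 0.0905). With the replicate block both were called, at limma adjusted p of 0.0376 and 0.0439, which made 5 members, where 19% of all genes were called with the block. Of the single arrays left out, replicate 2 of the cohort of 2 divisions and replicate 2 of the cohort of 3 or more each left 0 calls of these 3 genes, and replicate 1 of the latter left Grhl1. Without replicate 1 of 2 divisions Grhl1 had a limma adjusted p of 0.0534. The cohorts of 2 and of 3 or more divisions lie in different registered sets of arrays, so set and divisions cannot be told apart here. These comparisons share the arrays of 3 or more divisions with the one against the control, so they are no independent evidence for the same genes.

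Other epithelial genes reached larger differences than the members. The lists from here on were also chosen with earlier results of these data known. Their shares beside those of all genes are therefore no independent evidence. In a list of other epithelial genes, 9 of 38 measured (23.7%) rose after 3 or more divisions against the control and 2 fell, with a median of 0.09, where 15.9% of all genes rose and 11.7% fell. Cdh1, the gene of E-cadherin, read 3.22 and 3.52 in the control and 9.19 and 9.42 after 3 or more divisions. It differed by 5.93, more than any of the 33 members. The desmosomal gene Dsp differed by 5.66, and the keratin genes Krt19 and Krt8 by 5.35 and 5.08, with limma adjusted p from 1e-04 to 0.000552 for these 4. The Dsp probe set is of the type marked as matching several transcripts.

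In a list of other junction and polarity genes, 6 of 44 measured (13.6%) rose and 8 fell, with a median of -0.19, beside the 15.9% and 11.7% of all genes that rose and fell. Cxadr, a junction adhesion molecule, rose by 1.30, while Amot, Amotl2 and Mpdz, which encode plaque and scaffold proteins, fell, with log2 differences of -2.87, -1.70 and -1.67. Limma adjusted p lay between 0.000197 and 0.00476. Of 10 transcription factors of the mesenchymal state, 0 rose and 5 fell, with a median of -0.53. Snai2, Twist1, Snai1 and Zeb1 had log2 differences of -1.55, -1.31, -0.73 and -0.69, with limma adjusted p from 0.00592 to 0.0444. The Snai2 probe set carries the mark for probes that can match other transcripts. Snai1, Snai2 and Zeb1 encode factors that read the E-box word shown above. Among members with a promoter window, 3 of the 4 called and 13 of the 20 not called held that word. Any link between these factors and the members was not tested.

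Markers of other cell types were counted in the same comparison, in which 15.9% of all genes rose and 11.7% fell. Of 13 keratinocyte markers measured, 6 rose and 0 fell, and their summed intensity went from 426.9 and 351 in the control to 3997 and 3806 after 3 or more divisions. The 3 that changed 2-fold or more were Krt16, Krt14 and Krt6a, with log2 differences of 6.67, 6.04 and 3.95 (limma adjusted p from 0.00022 to 0.000292). The median difference of the 13 was 0.34. The Krt14 probe set carries the mark for probes that can match other transcripts. Krt5, which with Trp63 defines basal keratinocytes, read 5.19 and 5.21 in the control and 5.05 and 5.31 after 3 or more divisions, so its groups overlapped. Trp63 read 5.65 and 5.08 in the control and 4.70 and 4.84 after 3 or more divisions. Of 14 simple epithelium markers, 2 (14.3%) rose and 0 fell, a share near that of all genes. These 2 were Krt19 and Krt8, with the log2 differences of 5.35 and 5.08 given above. The summed intensity of the 14 went from 452.6 and 523.6 in the control to 2141 and 2021 after 3 or more divisions. Of 13 fibroblast markers measured, 0 rose and 8 fell, and their sum went from 158100 and 152800 to 102000 and 87310. Pdgfra, Postn, Dcn and Pdgfrb had the largest called falls, with log2 differences of -2.95, -2.08, -1.98 and -1.96 (limma adjusted p from 0.000345 to 0.0303). Col1a1, Col1a2 and Vim, which mark fibroblasts, read 12.32 or more on all 10 arrays. From the control to 3 or more divisions, their means went from 14.02 to 13.34, from 14.42 to 13.45 and from 14.24 to 14.31.

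Of 10 endothelial markers 1 rose and 3 fell, and of 9 blood cell markers 1 rose and 1 fell. Of all genes, 15.9% rose and 11.7% fell. Tek rose by 2.44 (limma adjusted p = 0.000592), while Flt1, Erg and Kdr had log2 differences of -2.03, -1.88 and -0.55, with limma adjusted p of 0.0448, 0.00155 and 0.0263. Cd68, a macrophage lysosomal gene, read 4.91 and 4.19 in the control and 8.26 and 7.94 after 3 or more divisions, 3.54 higher (limma adjusted p = 0.000606), and Lyz2 had a difference of -1.39 (limma adjusted p = 0.00581). Pecam1 and Cdh5, which define endothelium, and Ptprc, which defines blood cells, stayed at or below 4.64 on all arrays. Of 12 pluripotent cell markers, 0 were called in the limma fit, where 27.6% of all genes were. At an unadjusted limma p under 0.05, 1 of the 12 passed, against 6908 of the 18193 genes. The log2 value of Actb at the transcript's 3′ end minus that at its 5′ end, a sign of RNA quality, was 0.263 and 0.26 in the control and 0.49 and 0.499 after 3 or more divisions. The part of any of these in the member values was not tested.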

How the data were processed

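Total RNA of 10 samples, 2 for each of 5 groups, was measured on Affymetrix mouse arrays. The authors deposited 1 table of linear intensity for 45101 probe sets. Per the submitters' processing notes, RMA was used for the 4 arrays of the control and of 3 or more divisions; for the other 6 the notes used here give none. These 4 and 6 arrays form 2 registered sets.

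From the deposited intensity, log2 values (floor of 1, which moved 0 values) were quantile normalized over the 10 arrays. Named probe sets were the 34945 with 1 gene in the platform's table; 932 had several. The probe set with the highest mean stood for each of 18193 genes. A model of 5 groups was fitted with limma 3.58.1 in R 4.3.3 (lmFit, eBayes, 5 residual degrees of freedom), called at a Benjamini-Hochberg adjusted p under 0.05, two-sided. With 2 arrays a group, the number of arrays limits the precision. The fit was tested on simulated arrays with known changes, which varied independently of one another. They held neither a joint deviation of arrays with the same replicate number nor a difference between the 2 registered sets. The simulation therefore does not test the p-values against either of these.

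Members and lists were chosen with earlier results of these data known. Named were all called members, the 4 others with the largest difference from the control after 3 or more divisions, Epcam, members whose probe sets disagreed, and up to 4 called genes of each other list with Cdh1. Other members were given by value, range or count. The word CCACTG was searched for comparison.

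Arrays with the same replicate number deviated together (r from 0.477 to 0.872 over genes in all 10 pairs of groups), so numbers were treated as pairing the samples; this comes from the data, as the labels name no shared culture. The fit without the replicate block stayed the main one, with 4 residual degrees of freedom in the blocked fit. Alternatives were other scalings, floors, probe set rules, filters, the block and leaving out each array.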

Additional observations from a re-analysis of the deposited data

Results flagged for a closer look

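Of the 26 probe sets of members that did not stand for their gene, 3 rose after 3 or more divisions against the control with a limma adjusted p under 0.05 over all probe sets. They lie outside the main measurement. For Cldn3 2 of them gave log2 differences of 1.09 (limma adjusted p = 0.000947) and 1.38 (limma adjusted p = 0.00054), where the probe set that stood for the gene gave 0.73. For Esrp2 the third gave 1.48 (limma adjusted p = 0.00686), where the probe set that stood for the gene gave -0.56. Both Cldn3 probe sets carry the mark for probes that can match other transcripts, and the Esrp2 probe set carries none.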

How the results depend on the processing

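The counts of members called against the control after 0 and 1 divisions, and between 2 and 0 divisions, stayed at 0 in the 14 alternatives run for each. Grhl3, Grhl1, St14 and Cldn3 were called in all 13 alternatives that measured them against the control, and Crb3 in 6 of 13. With genes above the median only, where 4 members remain, 0 were called in each comparison of 3 or more divisions. In that setting 4457 of all genes kept were called for 3 or more divisions against the control. With the replicate block, 2 members were called after 2 divisions against the control and 5 between 3 or more and 2 divisions; the pairing moved no other count by over 1.5 times. Leaving out each array in turn gave 4 to 6 members called for 3 or more divisions against the control, 3 to 4 against 0 divisions and 0 to 2 against 2 divisions. It gave 0 to 1 for 2 divisions against the control, with 1 call without control replicate 1 or without replicate 2 of that cohort. In such fits the lone array of a group is assumed to vary like the other groups. Esrp2 reversed where probe sets without a suffix were preferred, to 1.48 against the control and 1.36 against 0 divisions. The causes of these shifts were not tested beyond the number of members or arrays left. With 2 arrays a group and no detection calls, small changes of dim members are beyond these data.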
